A study of Mus musculus with 12 samples.

Results

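The genes described here are the Notch receptors other than *Notch1* (*Notch2*, *Notch3* and *Notch4*), the Jagged and Delta ligands (*Jag1*, *Jag2*, *Dll1* and *Dll4*) and the Fringe glycosyltransferases (*Lfng*, *Mfng* and *Rfng*), in the left atrium (LA) of adult mice with Notch signaling switched on in cardiomyocytes. They are 10 of the 54658 gene names in a table of RNA-sequencing read counts and were matched by name, as members of these gene families. All 10 had more than 1 CPM (the reads of a gene scaled to a common library total) in at least 6 libraries, as did 13541 genes in all, and normalized CPM below use totals adjusted by the TMM method. Of the 12 mice, 6 were iNICD mice and 6 were their control littermates. The iNICD mice carried *αMHC-rtTA*, a tetracycline-dependent transactivator under a cardiomyocyte promoter, together with *tetO-NICD*, an inducible transgene for the intracellular domain of Notch1. Controls carried *αMHC-rtTA* without *tetO-NICD*. All 12 were 2 to 3 months old when doxycycline chow was started, ate it for 3 weeks with no washout, and were of a mixed genetic background. The controls were 4 females and 2 males, the iNICD mice were 3 females and 3 males, and each LA made its own library. The transgene was thus driven in cardiomyocytes, while the RNA was of the whole LA with all of its cell types.

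Notch receptors are single-pass membrane proteins that bind Jagged and Delta ligands on neighboring cells. Binding lets proteases cut the receptor, and the freed intracellular domain (NICD) joins the DNA-binding protein RBPJ in the nucleus to activate genes such as those of the HES and HEY families, whose products are transcriptional repressors. Fringe enzymes add sugars to the extracellular repeats of the receptors and so change which ligands they answer to. In the heart and its vessels, *Notch4*, *Dll4* and *Jag2* are known chiefly from endothelium, *Notch3* from smooth muscle and pericytes, and *Jag1* and *Notch2* from several cell types. The comparison asked whether the RNA of these genes differed once NICD was supplied to cardiomyocytes without need of ligand or of receptor cleavage.

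The stretches upstream of 3 of the genes are shown because *Notch2* and *Jag1* were the genes with positive differences whose 95% intervals left out 0 and *Lfng* was the gene with a full RBPJ sequence. They are the parts of the RefSeq promoter window (GRCm38.p6, 250 bases before to 50 after the RefSeq start) that lie before the gene as GENCODE annotates it: chr3:98013288-98013526 on the plus strand for *Notch2*, chr2:137116645-137116770 on the minus strand for *Jag1* and chr5:140607091-140607319 on the plus strand for *Lfng*. Capitals mark matches, on either strand, to the RBPJ core TGGGAA, the longer RBPJ sequence CGTGGGAA, which contains the core, and CACGNG, a sequence bound by HES and HEY proteins.
Notch2: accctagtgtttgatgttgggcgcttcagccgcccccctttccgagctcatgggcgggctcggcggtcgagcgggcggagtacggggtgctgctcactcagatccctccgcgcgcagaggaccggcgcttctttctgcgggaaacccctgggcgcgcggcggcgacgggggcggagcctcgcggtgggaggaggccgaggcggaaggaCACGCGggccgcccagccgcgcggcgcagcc
Jag1: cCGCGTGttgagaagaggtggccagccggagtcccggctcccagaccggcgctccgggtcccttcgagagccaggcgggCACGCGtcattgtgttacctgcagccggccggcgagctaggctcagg
Lfng: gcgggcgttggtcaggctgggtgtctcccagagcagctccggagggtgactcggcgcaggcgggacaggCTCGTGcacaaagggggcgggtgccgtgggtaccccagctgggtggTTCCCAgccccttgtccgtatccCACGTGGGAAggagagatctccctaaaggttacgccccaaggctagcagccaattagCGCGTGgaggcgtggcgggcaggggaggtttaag
Over the whole windows, 9 of the 10 genes were matched to RefSeq, with 10 windows in all since *Dll1* has 2 starts. CGTGGGAA was found in 1 window, that of *Lfng*, beginning 110 bases before the start, against 0.734% of 32851 mouse promoter windows of the same length. The core TGGGAA was likewise found in the *Lfng* window alone, in both orientations, against 25.6% of all windows. CACGNG was found in 9 of the 10 windows, all but that of *Notch4*, against 27.5% of all windows. The GC content of these windows ran from 55.7% (*Jag1*) to 86% (*Jag2*). That of all windows was not computed, so base composition was not accounted for in these comparisons. The matches describe the letters of the windows, and binding was not measured.

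RNA counted on *Notch1*, whose sequence the transgene carries, was higher in every iNICD library than in any control, with 71187 to 107667 against 2335 to 3311 counts. It had a mean of 118 ± 10.01 normalized CPM (SD, n = 6) in control LA and 3408 ± 441 in iNICD LA (log2 fold change 4.85, SE 0.11, edgeR adjusted p = 3.03e-11), and reads of the transgene and the endogenous gene cannot be told apart. Total counts ran from 21432632 to 27182038 reads in the 12 libraries. The control library of replicate 5 stood apart, at −77.4 on the first principal component (32.6% of the variance), where the other libraries lay between −20.2 and 22.7. It had 1793 genes at least 2-fold from its group mean, where the others had 187 to 423, and fold changes without it are given beside the genes below for which it was the extreme control or moved a call. Cardiomyocyte markers summed to 58669.7 to 63621 CPM in control libraries and 51785 to 59969 in iNICD libraries, with *Tnnt2* and *Myl7*, which encode sarcomere proteins, lower in iNICD LA (log2 fold changes −0.44 and −0.54, edgeR adjusted p = 0.0153 and 0.0367). These were 2 of 8 markers, and the other 6 summed to 45133 to 49025 CPM in control and 41733 to 48200.3 in iNICD libraries. The ventricular marker *Irx4* was at 0 in every library.

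Of the 10 genes, *Notch2* was higher and *Jag2* lower in iNICD LA, and 8 did not pass the threshold (edgeR quasi-likelihood test, two-sided, Benjamini-Hochberg adjustment over all 13541 genes, threshold 0.05). Of all genes tested 558 passed, or 4.12%, with 377 (2.78%) higher and 181 (1.34%) lower. *Notch2* rose to 1.37 times the control level and *Jag2* fell to 0.731 times. *Jag1*, at 1.34 times, lay just outside the threshold with an adjusted p of 0.0549 in the edgeR test. The median log2 fold change was −0.14 for the 3 receptors, −0.10 for the 4 ligands and −0.13 for the 3 Fringe genes, beside −0.01 for all genes tested. Within each of these families a single gene had a positive estimate, namely *Notch2*, *Jag1* and *Lfng*. In whole tissue, fewer cells of a type and less RNA per cell cannot be told apart.

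**Figure D1:**
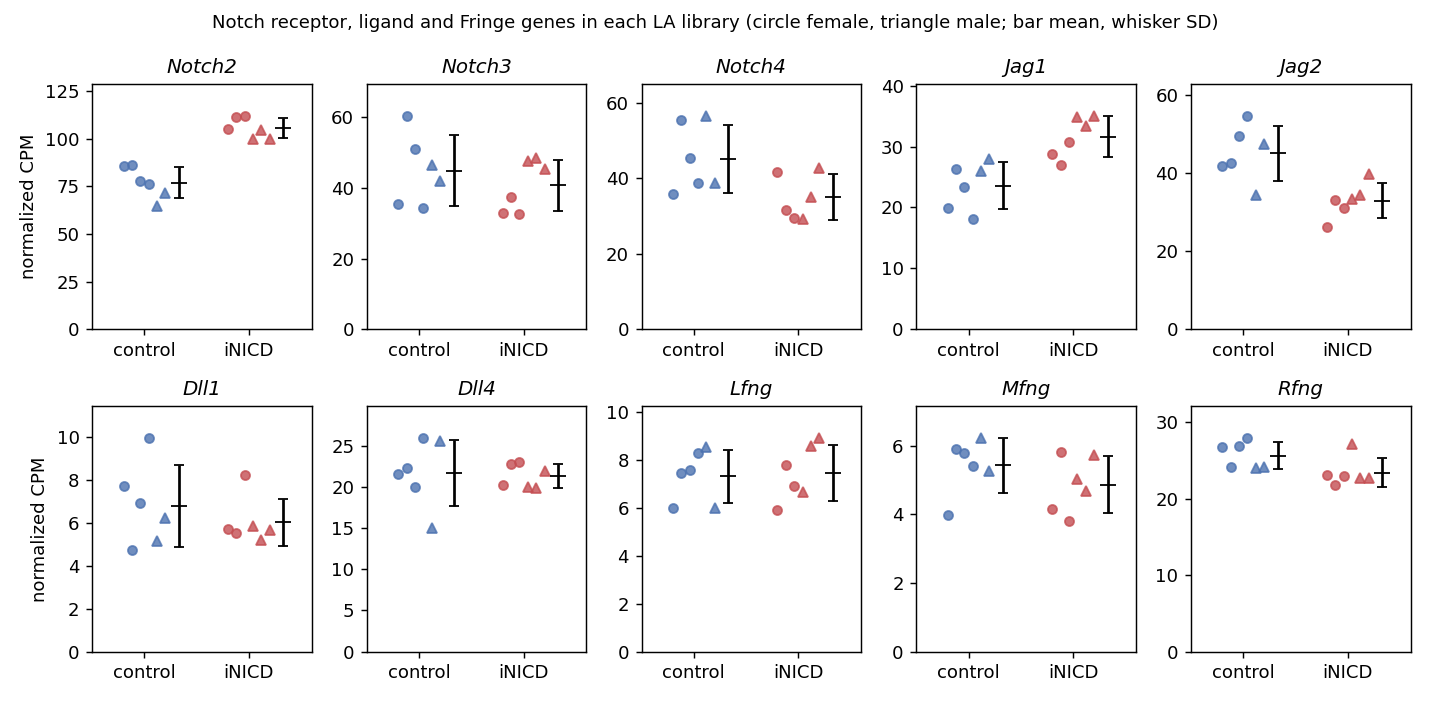
Normalized CPM (y axis, from 0) of each gene in the 6 control and 6 iNICD LA libraries, with circles for female and triangles for male mice and the mean and SD beside the points. The *Notch2* points do not overlap between groups (64.6 to 86.3 against 99.9 to 112), 5 of the 6 iNICD points of *Jag1* lie above all controls, and 4 of the 6 iNICD points of *Jag2* lie below all controls.

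*Notch2* was the receptor with the clearest difference. It ran from 64.6 through a median of 77.1 to 86.3 normalized CPM in control LA, and from 99.9 through 105 to 112 in iNICD LA. Every iNICD library was above every control library, as for 519 of the 13541 genes tested (3.83%) in either direction. The means were 77.1 ± 8.37 and 106 ± 5.36 CPM (SD, n = 6 per group). On the log2 scale the difference was 0.45 with an SE of 0.07 and a 95% interval from 0.30 to 0.61 (edgeR adjusted p = 0.00318). The two-sided exact permutation test over libraries gave p = 0.00216, the smallest that 6 against 6 libraries allow. Such tests were run for all 10 genes and their p-values are unadjusted. By sex, *Notch2* had 76.5 to 86.3 CPM in control and 105 to 112 in iNICD females, and 64.6 to 71.4 in control and 99.9 to 105 in iNICD males. Without control replicate 5, the lowest control, the log2 fold change was 0.41 and the edgeR adjusted p was 0.00179. In the 5 male libraries alone it was 0.56 with an edgeR adjusted p of 0.465, in a fit that called 8 genes higher and 0 lower.

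The annotated *Notch1* transcript was compared with those of the other receptors, since the transgene carries *Notch1* sequence. The gene lies at chr3:98013527-98150361 on the plus strand of GRCm38, apart from *Notch1* on chromosome 2. Of all stretches of 50 bases, the length of the reads, the most alike between the *Notch1* and *Notch2* transcripts differed at 5 bases, against 6 for *Notch3* and 10 for *Notch4*. *Notch1* rose 28.9-fold and the 3 other receptors had fold changes from 0.774 to 1.37. Whether any transgene read was counted on another receptor was not tested. Another annotated gene, *Gm42820*, shares 541 exon bases and the strand with *Notch2* and had 0 to 6 counts per library, where *Notch2* had 1380 to 3074.

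*Notch3* and *Notch4*, the receptors known from mural cells and endothelium, had lower means in iNICD LA but did not pass the threshold. *Notch3* ran from 34.2 through 44.3 to 60.5 CPM in control LA and from 32.7 through 41.4 to 48.4 in iNICD LA, and the groups overlapped widely. Its log2 fold change was −0.14 (SE 0.15, 95% interval −0.47 to 0.19, edgeR adjusted p = 0.673), and it ran from −0.21 to −0.046, the latter without control replicate 2, when single libraries were left out. In females alone it was −0.40 (edgeR adjusted p = 0.341) and in males alone 0.075. Among iNICD mice the females had 32.7 to 37.4 CPM and the males 45.3 to 48.4, while control females spanned 34.2 to 60.5. *Notch3* shares 488 exon bases with the antisense gene *Gm17276*, which had 3 to 46 counts against 811 to 1640 for *Notch3*. *Notch4* ran from 35.9 through 42.2 to 56.6 CPM in control LA and from 29.2 through 33.3 to 42.9 in iNICD LA. For *Notch4*, 4 iNICD libraries lay below all controls and the other 2 within the control range. The log2 fold change of *Notch4* was −0.37 (SE 0.14, 95% interval −0.68 to −0.06), with an unadjusted p of 0.0217 and an adjusted p of 0.188 in edgeR, where 17.4% of all genes had an unadjusted p under 0.05. The exact permutation test for *Notch4*, two-sided and unadjusted, gave p = 0.0476. Without control replicate 5, the highest control, the log2 fold change was −0.30 (edgeR, unadjusted p = 0.0499, adjusted p = 0.258).

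Markers of the cell types in which these receptors are known were measured alongside. For smooth muscle, 0 of 8 markers passed, with summed levels of 516 to 676 CPM in control and 546 to 738 in iNICD LA. For pericytes, 1 of 8 passed, *Cspg4* (log2 fold change 1.89), and the other 7 summed to 379 to 520 CPM in control and 443 to 560 in iNICD LA. For endothelium, 1 of 12 passed, *Esam* (log2 fold change 1.46), and the other 11 summed to 1600 to 2307 CPM in control and 1437 to 1795 in iNICD LA. Arterial endothelial markers, with 0 of 6 passing, summed to 121 to 187 CPM in control and 115 to 145 in iNICD LA. Endocardial markers, with 0 of 4 passing, summed to 390 to 455 CPM in control and 314 to 471 in iNICD LA. Lymphatic endothelial markers, with 0 of 5 passing, summed to 128 to 227 CPM in control and 158 to 188 in iNICD LA. The median log2 fold change was −0.32 for endocardial and −0.09 for lymphatic markers, beside −0.12 for endothelial and −0.14 for arterial markers. The part of these cell types in the receptor and ligand values was not tested.

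The estimates for the Jagged ligands had opposite signs, and *Jag2* alone passed the threshold. *Jag1* ran from 18.1 through 24.6 to 27.9 CPM in control LA and from 26.9 through 32.1 to 35.1 in iNICD LA, so that 5 iNICD libraries lay above all controls and the sixth, a female, was below the highest control. The means were 23.6 ± 3.91 and 31.6 ± 3.37 CPM (SD, n = 6 per group). On the log2 scale the difference was 0.42 (SE 0.11, 95% interval 0.18 to 0.67), with an adjusted p of 0.0549 in edgeR and an unadjusted p of 0.00433 in the two-sided exact permutation test. Males had more *Jag1* than females in both groups, with means of 27.0 and 21.9 CPM in control and 34.5 and 28.8 in iNICD LA. With sex in the model the log2 fold change of *Jag1* was 0.38 and its edgeR adjusted p was 0.0304. The adjusted p also went below the threshold with DESeq2 (0.0129) and with the edgeR exact test (0.0209). It did so too without control replicate 5 (log2 fold change 0.45, edgeR adjusted p = 0.0393), control replicate 6 (0.0374) or iNICD replicate 2 (0.0498). In the other alternatives *Jag1* missed the threshold, with adjusted p from 0.0508 with upper quartile normalization to 0.160 in females alone and 0.775 in males alone. *Jag1* lies at chr2:137081456-137116644 on the minus strand.

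*Jag2* fell. It ran from 34.4 through 45.2 to 54.8 CPM in control LA and from 26.2 through 33.2 to 39.9 in iNICD LA. There, 4 iNICD libraries lay below all controls, and the other 2 were above the lowest control only, which was control replicate 5. The means were 45.2 ± 7.06 and 33.01 ± 4.47 CPM (SD, n = 6 per group), which differ by −0.45 on the log2 scale (SE 0.12, 95% interval −0.71 to −0.20, edgeR adjusted p = 0.0487, exact permutation p = 0.00649). This call was close to the threshold. Over all 12 omissions of 1 library the log2 fold change ran from −0.52 to −0.39. The call held without control replicate 5 (log2 fold change −0.52, edgeR adjusted p = 0.00988) and without iNICD replicate 6. It missed the threshold when any other single library was left out, with edgeR adjusted p up to 0.106. It also missed the threshold with upper quartile normalization (adjusted p = 0.0539), without a filter on low counts (0.0599), with sex as a covariate (0.0563) and with a replicate block by either numbering (0.0663 and 0.0596), all in edgeR, and passed with DESeq2 (0.00567) and the edgeR exact test (0.0152). In females *Jag2* had 41.8 to 54.8 CPM in control and 26.2 to 33.1 in iNICD LA, while in males it had 34.4 and 47.6 in control and 33.3 to 39.9 in iNICD LA. The log2 fold change was −0.65 in females alone and −0.21 in males alone (edgeR adjusted p = 0.0372 and 0.798). *Jag2* lies at chr12:112907819-112929776 on the minus strand, and the most similar stretches of 50 bases in the *Jag1* and *Jag2* transcripts differed at 4 bases.

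**Figure D2:**
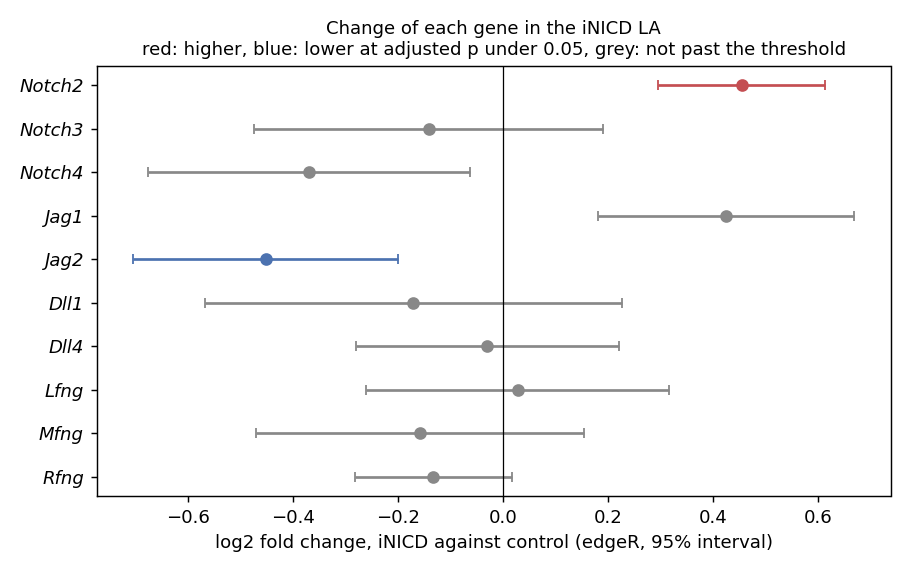
Log2 fold change of iNICD against control LA (x axis) with its 95% interval for each gene, red for higher, blue for lower and grey for not past the threshold. The intervals of *Notch2* and *Jag1* lie above 0 and those of *Notch4* and *Jag2* below 0, but *Notch2* and *Jag2* alone passed after adjustment over all genes.

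Set side by side per deposited gene length, the Jagged genes exchanged their order, which depends on the lengths used. Those lengths were 5827 bases for *Jag1* and 6965 for *Jag2*, where the longest annotated transcripts had 5612 and 5106. In normalized CPM, without length, mean *Jag2* was above mean *Jag1* in iNICD LA too, at 33.01 against 31.6. The level of *Jag1* over that of *Jag2*, as RPKM (normalized CPM per kilobase of the deposited gene length), ran from 0.395 to 0.901 in control LA with a mean of 0.644 ± 0.175, and from 0.972 to 1.31 in iNICD LA with a mean of 1.155 ± 0.126 (SD, n = 6 per group). By these lengths *Jag2* was above *Jag1* in all 6 controls. *Jag1* was above *Jag2* in 5 of the 6 iNICD libraries, the exception being a female at 0.972. A shorter length for *Jag2* would lower every ratio, and other lengths were not tried. Without control replicate 5, the control with the highest ratio, the control mean was 0.592. The ratio was chosen with the fold changes of both genes known, and no test is given for it.

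**Figure D3:**
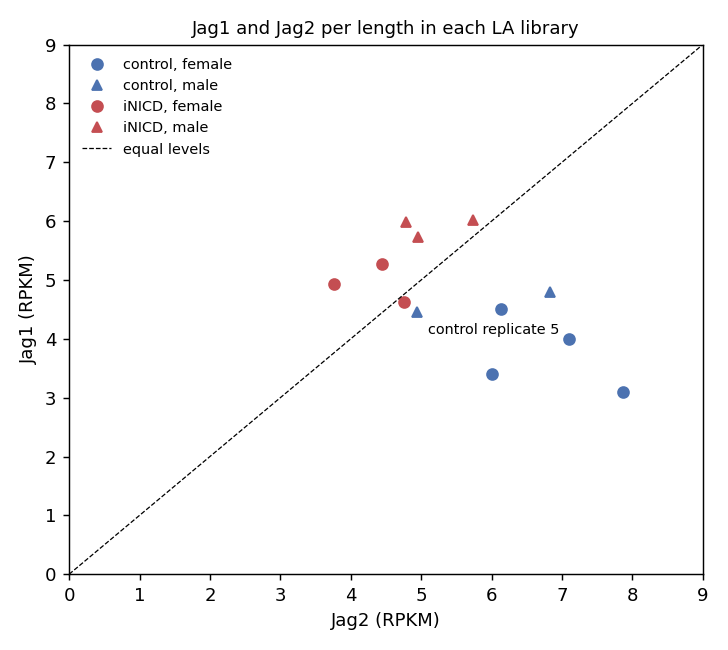
*Jag1* against *Jag2* in RPKM in each LA library, with circles for females and triangles for males. The dashed line marks equal levels by the deposited gene lengths, and its place depends on them. All 6 controls lie below the line, control replicate 5 nearest to it at a ratio of 0.901, and 5 of the 6 iNICD libraries lie above it.

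The Delta ligands did not pass the threshold. *Dll4*, the Delta ligand of arterial and sprouting endothelium, ran from 14.98 through 21.9 to 25.9 CPM in control LA and from 19.8 through 21.1 to 23.0 in iNICD LA. All 6 iNICD libraries fell inside the control range, and control replicate 5 was the lowest of all at 14.98, with the other controls at 20.02 to 25.9. The log2 fold change of *Dll4* was −0.03, and its 95% interval ran from −0.28 to 0.22 (edgeR adjusted p = 0.922). Without control replicate 5 it was −0.12 (edgeR adjusted p = 0.485). *Dll1* ran from 4.72 through 6.60 to 9.95 CPM in control and from 5.22 through 5.69 to 8.21 in iNICD LA, again wholly inside the control range. *Dll1* had a log2 fold change of −0.17 (SE 0.18, 95% interval −0.57 to 0.23, edgeR adjusted p = 0.671) and the widest relative spread of the 10 genes among controls, with a coefficient of variation of 28.1%. Its log2 fold change ran from −0.279 without iNICD replicate 3 to −0.029 without control replicate 4. With 110 to 252 counts per library, *Dll1* was also among the genes with the fewest reads. The antisense genes *A930024N18Rik* and *Gm14207*, which share exon bases with *Dll1* and *Dll4*, had 4 to 18 and 15 to 35 counts.

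None of the Fringe genes passed the threshold. *Rfng* came nearest, running from 24.0 through 25.5 to 27.9 CPM in control and from 21.8 through 22.9 to 27.1 in iNICD LA, with 5 iNICD libraries below all controls and the remaining library, a male, among the highest values. The log2 fold change of *Rfng* was −0.13 (SE 0.07, 95% interval −0.28 to 0.02, edgeR adjusted p = 0.346, exact permutation p = 0.0584), and −0.15 without control replicate 5, and it was the steadiest of the genes among controls, with a coefficient of variation of 6.84%. *Lfng*, the gene with the full RBPJ sequence upstream, ran from 5.97 through 7.51 to 8.52 CPM in control and from 5.89 through 7.33 to 8.90 in iNICD LA. The ranges of *Lfng* were nearly the same, its log2 fold change was 0.03 (SE 0.13) and 0.075 without control replicate 5, and the 95% interval from −0.26 to 0.32 bounds the change at these depths (edgeR adjusted p = 0.937). *Mfng* ran from 3.97 through 5.602 to 6.22 CPM in control and from 3.80 through 4.86 to 5.82 in iNICD LA, with a log2 fold change of −0.16 (SE 0.14, 95% interval −0.47 to 0.15, edgeR adjusted p = 0.611), and −0.116 without control replicate 5 and −0.095 without iNICD replicate 3. *Mfng* had the lowest count of any of the genes, 96 reads in 1 library.

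Control replicate 5 was the extreme control for 7 of the 10 genes. It was the lowest control for *Notch2*, *Jag2*, *Dll4* and *Rfng* and the highest for *Notch4*, *Lfng* and *Mfng*. This library had 1793 genes at least 2-fold from its group mean. How often it was the extreme control over all genes tested was not counted. In the same library the 12 endothelial markers summed to 2373 CPM, where the other controls had 1652 to 1960.

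Levels were compared between genes per length. In control LA the mean RPKM was 10.3 for *Rfng*, 7.15 for *Notch2*, 6.48 for *Jag2*, 5.64 for *Dll4*, 5.61 for *Notch4* and 5.59 for *Notch3*. *Jag1* followed with 4.05 RPKM, then *Lfng* with 2.91, *Mfng* with 1.91 and *Dll1* with 1.61. *Notch1* had 8.28 RPKM in the same controls. Of neighbors in this order, the library ranges separated *Rfng* from *Notch2* and *Lfng* from *Mfng*, and all other neighbors overlapped. In iNICD LA *Notch2* had the highest mean at 9.80 RPKM, followed by *Rfng* at 9.40 and *Dll4* at 5.52, and *Jag1* at 5.43 RPKM came directly after *Dll4*, where in control LA it came after *Notch3*. *Notch3* followed at 5.07 RPKM, *Jag2* at 4.74, *Notch4* at 4.34, *Lfng* at 2.97, *Mfng* at 1.72 and *Dll1* at 1.43. The ranges in iNICD LA separated *Rfng* from *Dll4*, *Notch4* from *Lfng* and *Lfng* from *Mfng*, and *Notch2* from *Rfng* not. The deposited lengths equalled the exon union of GENCODE M21 for 9 of the 10 genes, the exception being *Notch3* at 8044 against 8089 bases. A union can be longer than any single transcript, and by unequal amounts. It had 6965 bases against 5106 in the longest *Jag2* transcript, and 8061 against 6591 for *Notch4*. For *Notch1* it had 14232 against 9488, and for *Notch2* 10782 against 10500. The order of levels depends on these lengths.

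**Figure D4:**
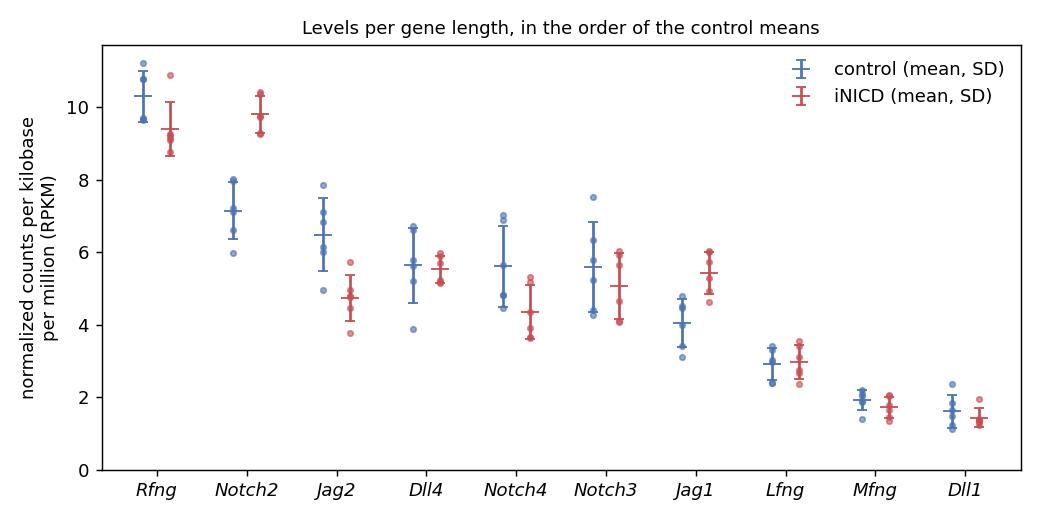
RPKM of each gene in each LA library (y axis, from 0), in the order of the control means, with the mean and SD of the 6 control (blue) and 6 iNICD (red) libraries. *Rfng* is highest in control LA at 10.3, and *Notch2* moves from 7.15 to 9.80, past *Rfng* at 9.40 in iNICD LA.

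The makeup of each family followed from these levels. *Notch2* made up 39.3 ± 5.59% of the summed RPKM of the 3 receptors in control LA and 51.1 ± 4.26% in iNICD LA (SD, n = 6 per group), while the sum itself was 18.3 ± 2.34 and 19.2 ± 0.798 RPKM. *Notch3* made up 30.2% and 26.3%, and *Notch4* 30.5% and 22.6%. Among the 4 ligands *Jag2* held the largest mean share in control LA, 36.4 ± 2.41%, and 27.6 ± 2.29% in iNICD LA, with ranges of 34.1% to 39.6% and 24.6% to 30.5%. *Jag1* went from 23.1 ± 5.17% to 31.7 ± 2.45% of the ligand RPKM, while *Dll4* was at 31.5% and 32.3% and *Dll1* at 9.02% and 8.37%. The summed ligand level was 17.8 ± 2.03 RPKM in control and 17.1 ± 1.16 in iNICD LA. *Rfng* accounted for 68.1% and 66.8% of the Fringe RPKM, *Lfng* for 19.2% and 21.1% and *Mfng* for 12.7% and 12.1%. These shares are descriptions with no test, and they depend on the deposited gene lengths.

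Sex was examined in a model with an interaction of sex and genotype. None of the 10 genes had an adjusted p under 0.05 for the interaction, nor did any of the 13541 genes tested (edgeR, 0%), and 3.7% of all genes had an unadjusted p under 0.05. DESeq2 called 1 gene in all, which was not among the 10. The smallest unadjusted p among the 10 was that of *Jag2*, 0.0637 in edgeR, with a difference of log2 fold changes, male minus female, of 0.46 (95% interval −0.03 to 0.94, adjusted p = 0.916). Without control replicate 5 that difference for *Jag2* was 0.23. For *Notch3* the difference was 0.49 with an unadjusted p of 0.108 in edgeR. With 2 control males, intervals of this width leave sizeable differences between the sexes undetected.

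Among the 6 iNICD libraries the amount of *Notch1* RNA was set against each of the 10 genes. Pearson's r ran from −0.616 (*Notch4*) to 0.593 (*Rfng*), with exact permutation p of 0.171 and 0.169, each 0.854 after Benjamini-Hochberg adjustment over the 10 relations. Spearman's rho for *Notch4* was −0.771 and for *Rfng* 0.371, with exact permutation p of 0.103 and 0.497, each 0.714 after adjustment over the 10 relations. After the 2 libraries farthest from the median of *Notch1* were left out, r over the remaining libraries ran from −0.986 (*Notch3*, at 0.061 over all 6) to 0.963 (*Rfng*), and was −0.14 for *Notch4*. No relation passed after adjustment.

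Other genes of the pathway were counted in lists of receptor proteases, ligand and receptor handling, nuclear partners and targets. Of 68 genes, 61 were tested, 4 were higher and 0 lower, all 4 of them targets. *Nrarp*, an inhibitor of NICD that NICD itself induces, had a log2 fold change of 4.39, the repressor genes *Hes1*, *Hey1* and *Heyl* had 2.07, 1.77 and 1.71, and the highest of their edgeR adjusted p was 6.85e-06. The other tested targets were *Hes6* and *Hey2*, at log2 fold changes of −0.16 and 0.18 (edgeR adjusted p = 0.825 and 0.630), and *Hes5* was under the filter. Target genes summed to 114 to 155 CPM in control libraries and 465 to 844 in iNICD libraries.

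In the fit described here no gene for receptor cleavage, ligand endocytosis or glycosylation passed. Of the 10 genes for receptor cleavage 0 passed, with *Furin*, the convertase that first cleaves the receptor, at a log2 fold change of −0.05, *Ncstn*, a subunit of γ-secretase, at −0.0026 and *Adam10*, the protease that cuts the ligand-bound receptor, at 0.09. *Aph1b*, another γ-secretase subunit and chosen here after its value was seen, had 16.0 ± 3.30 CPM in control and 22.4 ± 1.91 in iNICD LA without overlap, and missed the threshold in the edgeR quasi-likelihood test (adjusted p = 0.0629). It passed with DESeq2 (adjusted p = 0.0117) and the edgeR exact test (0.0215). In the quasi-likelihood test *Aph1b* passed with sex as a covariate (0.0375), with the block by title numbers (0.0455) and in females alone (0.0451). Without control replicate 5 it also passed (edgeR adjusted p = 0.0161), with a log2 fold change of 0.38 against 0.48 over all libraries. Reads of *Aph1b* can be shared with the similar gene *Aph1c*, at 2.46 and 3.56 CPM. None of 6 genes for ligand endocytosis passed, with the ubiquitin ligase genes *Mib1* and *Mib2* at −0.01 and −0.04 on the log2 scale. None of 8 genes that glycosylate EGF repeats passed, among them *Pofut1*, which adds the fucose that Fringe extends, at a log2 fold change of −0.08 (edgeR adjusted p = 0.496).

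Of the lists of noncanonical ligands, turnover and nuclear factors, only that of turnover held a gene that passed. Of 9 atypical ligands 4 were tested and 0 passed. *Dll3*, the remaining Delta gene, was under the filter, and *Egfl7*, a secreted endothelial protein, had a log2 fold change of −0.26 (adjusted p = 0.116 in edgeR and 0.0489 with DESeq2). Among 11 genes for receptor turnover and negative regulation *Nrarp* passed, while *Nedd4* and *Itch*, which encode ubiquitin ligases, had log2 fold changes of −0.01 and −0.03. *Dtx3*, of the Deltex family, had 83.8 ± 3.42 CPM in control and 93.8 ± 2.89 in iNICD LA without overlap, and likewise missed the threshold in edgeR (adjusted p = 0.0730) but passed with DESeq2 (adjusted p = 0.00386). Of 17 nuclear genes tested 0 passed, with the corepressor genes *Ctbp1* and *Ncor1* at log2 fold changes of −0.04 and 0.23. The median over all 61 genes was 0.08, beside −0.01 for all genes tested.

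Over processing alternatives, *Notch2* passed the threshold in 22 of 23, *Jag2* in 7 and *Jag1*, which missed it in the fit described here, in 6, and the remaining 7 genes were not called in any. The log2 fold changes ranged from 0.41 to 0.56 for *Notch2*, from 0.34 to 0.48 for *Jag1* and from −0.65 to −0.21 for *Jag2*, so that the sign of all 3 held in all 23.

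**Figure D5:**
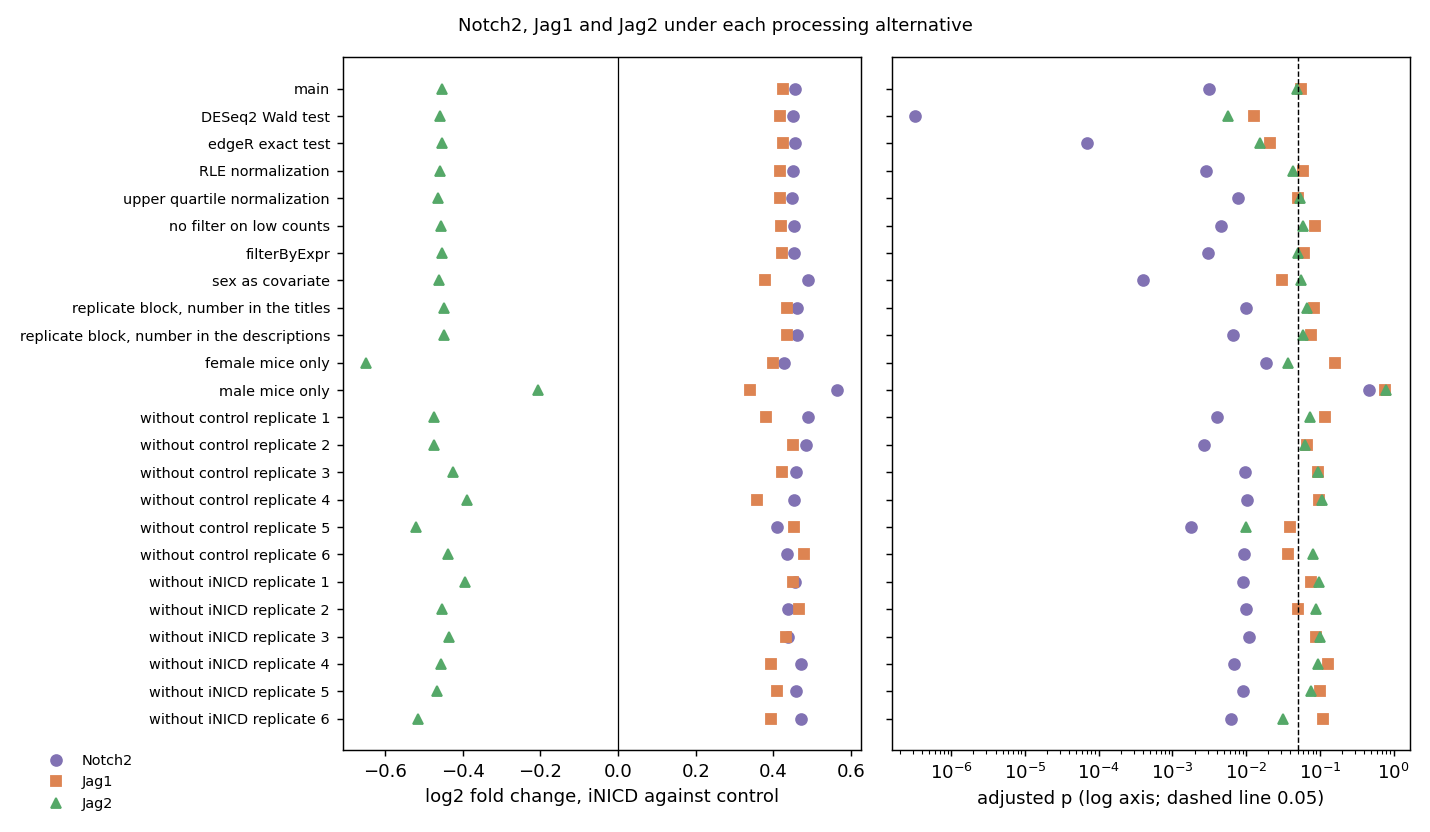
Log2 fold change (left) and adjusted p on a log axis (right) of *Notch2*, *Jag1* and *Jag2* in the fit described here (main) and in 23 alternatives, with a dashed line at 0.05. The *Notch2* points lie left of the line in all but the males-only fit, where its adjusted p was 0.465, and those of *Jag1* and *Jag2* lie on both sides.

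As a description of which genes varied together, log2 CPM values were centered within each group and correlated over the 12 libraries, with no test. The genes most like *Notch2* were *Sp110* (r = 0.96), *Parp12* (r = 0.93) and *Fads2* (r = 0.92). Those most like *Jag1* were *Smurf1* (r = 0.89), *Wisp2* (r = 0.87) and *Trarg1* (r = 0.86), and those most like *Jag2* were *Ring1* (r = 0.96), *Chadl* (r = 0.95) and *Zfyve21* (r = 0.95). For *Notch3* they were *Sirt6* (r = 0.91), *Rhobtb3* (r = 0.90) and *Tuba1b* (r = 0.87), and for *Notch4* they were *Dnmbp* (r = 0.87), *Clcn5* (r = 0.86) and *Arhgap31* (r = 0.85). *Mtrf1* was most like *Dll4* (r = 0.96), *0610009B22Rik* most like *Dll1* (r = 0.90), *Fbxl15* most like *Lfng* (r = 0.89), and *Clcn6* and *Scmh1* most like *Mfng* and *Rfng* (both r = 0.88). Of the 30 genes ranked in this way, the top 3 for each gene, 6 were ranked there again without control replicate 5 and 11 with Spearman's correlation.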

How the data were processed

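RNA of 12 LA was depleted of ribosomal RNA, made into stranded libraries and sequenced by the authors, who deposited raw counts per gene name, not normalized, and a length in bases per gene (another unit, used here for RPKM). Their methods give counting by featureCounts after STAR and by HTSeq after TopHat2; the processing notes name STAR 2.4.2a, featureCounts and mm10, and neither TopHat2 nor HTSeq; the table itself names no counter, and the strand setting is not given in the sources used here. Groups, replicates and sex are from the labels. Genes over 1 CPM in at least 6 libraries were compared with edgeR 4.0.16 (TMM, quasi-likelihood, R 4.3.3), tested on simulated data first. The members are set by gene family, and they and the lists were chosen with earlier results of these data known. Named are all members, *Notch1*, up to 5 called and 3 abundant uncalled genes per pathway list, called markers (up to 5), and the 3 genes most like each member; a gene this rule names is not reported here. Alternatives were DESeq2 1.42.0, the edgeR exact test, other normalizations and filters, sex, replicate blocks, each sex, and each library left out. Omitting control replicate 5 from ratios and shares was chosen after seeing the data. Replicate numbers were not taken as pairing libraries (correlation of same-numbered deviations −0.153 to 0.372). No libraries were copies (lowest chi-square per gene 16.7). RA libraries were not analysed here. Counting error and spread between mice both enter the p-values. Positions are from GENCODE M21 on GRCm38.

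The 14 marker lists covered cardiomyocytes, vessel wall cells and other cells. Fibroblast (0 of 8 passing, 2399 to 3171 CPM in control, 2392 to 3373 in iNICD), macrophage (0 of 8, 297 to 461 and 312 to 460), epicardial (0 of 6, 224 to 295 and 147 to 274), Schwann cell (0 of 3 tested), lymphocyte (0 of 1 tested), ventricular (0 of 1 tested) and red blood cell markers (0 of 4, 57.2 to 235 and 25.9 to 131) are given here only.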

Additional observations from a re-analysis of the deposited data

Results flagged for a closer look

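In 22 groups of 6 libraries, a single library stood far from the others of its group in 2, where 1.1 would be expected by chance at this criterion (the 95% critical value of Dixon's test). *Dll1* in iNICD replicate 3, a female, was at 8.21 normalized CPM, with the other iNICD libraries at 5.22 to 5.87. *Rfng* in iNICD replicate 4, a male, was at 27.1 normalized CPM, with the other iNICD libraries at 21.8 to 23.1. Neither gene passed the threshold with or without that library.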

How the results depend on the processing

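The number of the 10 genes called higher, 1 in the fit described above, was 2 with DESeq2, with the edgeR exact test and with sex as a covariate, through *Jag1*, 0 in males alone, and 1 to 2 when each library was left out in turn. The number called lower, 1 by *Jag2*, was 0 with upper quartile normalization, without a filter on low counts, with sex as a covariate and in males alone, and 0 to 1 when each library was left out. Pathway genes called higher, 4, were 6 with DESeq2, which added *Aph1b* and *Dtx3*, 5, by *Aph1b*, with the exact test, with sex as a covariate, with the block by title numbers, in females alone and without control replicate 5, and 1 (*Hes1*) in males alone. Those called lower, 0, were 1 (*Egfl7*) with DESeq2. Of the 13541 genes, DESeq2 called 615 higher and 444 lower, the exact test called 279 lower, males alone gave 8 and 0, and leaving out a library gave 92 to 304 lower, the lowest without iNICD replicate 1 and the highest without control replicate 5. Estimates near 0 changed sign: *Notch3* to 0.075 in males alone, *Dll4* to 0.0093 in males alone, and *Lfng* to −0.10 in females alone. Over the omissions of 1 library *Dll4* ran from −0.12 to 0.027, positive without control replicate 4 or 6, and *Lfng* from −0.030 to 0.087, negative without control replicates 1 or 6 or iNICD replicates 5 or 6. The cause of these shifts was not tested. A replicate block left 0 of the 10 genes called lower under either numbering (*Jag2*, edgeR adjusted p = 0.0663 with the numbers of the titles and 0.0596 with those of the descriptions) and changed no other call among the 10, while *Aph1b* was gained with the title numbers; by the titles, 5 of 12 libraries correlated best with their own number, a hint from the data and not the design, and the numbers were not taken as a pairing because not every same-numbered pair had a correlation over 0.1. Normalizations moved the median of all genes by under 0.1 on the log2 scale. Reads of 96 to 252 per library limit *Dll1*, *Lfng* and *Mfng*.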
